A study of Mus musculus with 8 samples.

Results

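The 9 miRNAs described here are the 5p arms of the miR-290-295 cluster of mouse: mmu-miR-290a-5p, mmu-miR-290b-5p, mmu-miR-291a-5p, mmu-miR-291b-5p, mmu-miR-292a-5p, mmu-miR-292b-5p, mmu-miR-293-5p, mmu-miR-294-5p and mmu-miR-295-5p. They were taken by name from a table of 1915 mature miRNAs. Small RNA of mouse embryonic stem cells (129/Ola background, grown with serum and LIF on gelatine) was sequenced in 8 libraries, 2 for each of 4 groups. The first group is wild type E14, a widely used embryonic stem cell line. The second holds 2 Ago2 knockout lines, 1 library each. The remaining groups come from 1 line, derived from knockout line 1, which carries the Ago2 knockout together with an inducible ectopic AGO1. This AGO1 line was sequenced without inducer (uninduced) and with doxycycline at 1 µg/mL (induced), and was kept in puromycin. All 3 groups other than wild type therefore lack Ago2, and the source label of the 4 AGO1 libraries names the same line. The labels do not say whether libraries A and B of a group came from separate cultures, so p-values measure only the spread between these samples, which may be technical. The table holds only miRNAs, so neither Ago2 nor AGO1 itself was measured here.

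The miR-290-295 cluster is transcribed as a single primary RNA in pluripotent mouse cells and is among their most abundant miRNA sources. Each hairpin is cut into a duplex, and an Argonaute protein (AGO1 to AGO4 in mammals) keeps a strand of it, the 5p or the 3p arm, and discards the partner. The 3p arms of this cluster are best known for promoting rapid division and holding back differentiation in embryonic stem cells. The 5p arms have different seeds, the bases 2 to 8 that pair with target RNAs, and have been studied less.

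The 9 genes lie within 2216 bases of chromosome 7 (GRCm38, 3218626 to 3220841, GENCODE vM21). Mir290b and Mir292b are annotated on the minus strand, opposite Mir290a and Mir292, and the other hairpins are on the plus strand. Nlrp12 is annotated on the minus strand from 3218784. Its exon at 3218784 to 3222560, annotated mostly as UTR, overlaps all of the hairpins except Mir290a and Mir290b. Mir292b is on the same strand as Nlrp12 and the rest of the overlapped hairpins are on the opposite strand.

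All 9 mature sequences were found in RefSeq (GRCm38.p6) and are printed by seed, since the seed sets which target sites an arm can pair with. Capitals mark the seed. The first 3 share CUCAAAC:
mmu-miR-290a-5p: aCUCAAACuaugggggcacuuu
mmu-miR-292a-5p: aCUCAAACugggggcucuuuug
mmu-miR-293-5p: aCUCAAACugugugacauuuug
The next 2 share AUCAAAG:
mmu-miR-291a-5p: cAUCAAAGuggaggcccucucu
mmu-miR-291b-5p: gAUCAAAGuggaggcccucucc
The next 2 share CUCAAAA:
mmu-miR-292b-5p: aCUCAAAAccuggcggcacuuuu
mmu-miR-294-5p: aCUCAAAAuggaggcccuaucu
The last 2 have seeds of their own:
mmu-miR-295-5p: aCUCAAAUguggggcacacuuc
mmu-miR-290b-5p: gCUUAAAAcuaggcggcacuuu

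None of the 5 seeds occurs in another mature miRNA among the 1679 in the same RefSeq table. Outside the seed the sequences are alike to different degrees. mmu-miR-291a-5p and mmu-miR-291b-5p are identical at 20 of 22 bases and differ by C1G and U22C, counted from the 5′ end with the 291a base first. mmu-miR-292a-5p and mmu-miR-293-5p share a seed and differ at 5 bases, all of them beyond it. mmu-miR-291a-5p and mmu-miR-294-5p differ at only 4 bases, of which A2C and G8A fall in the seed, so this close pair has different seeds.

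Library totals ran from 163467 counts (knockout line 2) to 1326638 (induced A), and a count of 3 was worth 2.57 to 15.1 CPM. CPM, the usual unit of depth-scaled counts, was computed here with TMM factors (0.881 to 1.22), which align the bulk of miRNAs between libraries. A level is therefore relative to the bulk of the sequenced miRNAs and not an amount per cell. In such bulk samples fewer cells of a type and less RNA per cell cannot be told apart. Libraries of a group correlated at a Spearman rho of 0.977 (wild type), 0.903 (the knockout lines), 0.973 (uninduced) and 0.985 (induced) across miRNAs, as a description of likeness. The 11 embryonic stem cell miRNAs listed were all counted and summed to 188850 to 254570 CPM per library. Most of that sum is 3p arms of this cluster, with mmu-miR-295-3p alone at 128050 to 179560 CPM. It is therefore not a check of the labelled cell type apart from the cluster. Fibroblast markers (4 of 5 counted, miR-214-3p at 0) summed to 3192 and 3748 CPM in wild type, 407 and 462 in the knockout lines, 321 and 374 uninduced and 1853 and 2031 induced. Blood markers (3 of 5 counted, miR-223-3p and miR-451a at 0) summed to 1834 to 1881 CPM in wild type, 5715 to 6389 in knockout, 6210 to 6716 uninduced and 3710 to 3871 induced. Neural markers (4 of 5 counted, miR-219a-5p at 0) summed to 1662 to 2061 CPM in wild type and 813 to 1214 in the other libraries, the 4 muscle markers to at most 6.61 CPM, and the 8 let-7 members to 1564 to 1960, 453 to 621, 443 to 522 and 1020 to 1105 in the same order of groups. These summed levels differ between the groups, and their part in the results was not tested.

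Together the 5p arms made up 5.03 to 6.52% of all counts in a library, against 19.97 to 24.4% for the 3p arms of the same hairpins. Their share was 5.99 ± 0.172% in wild type, 6.48 ± 0.0547% in knockout, 5.16 ± 0.186% in the uninduced and 5.70 ± 0.225% in the induced line (mean ± SD, n = 2). The 5p share of the whole cluster stayed between 19.8 and 22.7%. Almost all of it came from 3 arms: mmu-miR-292a-5p, mmu-miR-293-5p and mmu-miR-291a-5p held 95.1 to 96.8% of the 5p counts in every library. mmu-miR-292a-5p alone held 47.4 ± 1.65% of them in wild type, 56.0 ± 3.64% in knockout, 51.3 ± 2.65% uninduced and 41.4 ± 0.554% induced. At the other end, mmu-miR-290b-5p and mmu-miR-291b-5p averaged 41.2 and 32.9 CPM over the 8 libraries. All of these arms are 22 or 23 bases long. How efficiently each was captured in the library was not measured, so levels of different arms can be compared only roughly.

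All 9 members passed the filter on low counts, as did 475 miRNAs in all, which held 99.9% of counts. Each was tested with edgeR's quasi-likelihood test in 1 fit of the 8 libraries, with Benjamini-Hochberg adjustment over the 475 miRNAs of a comparison, and a call is an adjusted p under 0.05. In knockout against wild type, 7 of the 9 members were called, 2 higher and 5 lower, where 57.7% of all miRNAs tested were called. This balance depended on scaling. With library totals in place of TMM factors, 5 members were called, 4 higher and 1 lower, beside 266 of all 475 miRNAs. In the uninduced AGO1 line against wild type, 6 were called, 2 higher and 4 lower, with 59.2% called overall. The induced line against wild type gave 4 calls, 3 higher and 1 lower, beside 38.9% overall. These 3 comparisons share the wild type libraries and are not independent of each other. Read against these shares, the counts show nothing particular to the 5p arms.

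Doxycycline within the AGO1 line gave 3 calls among the members, all higher, where 28.8% of all miRNAs were called (100 higher and 37 lower). The induced line against the knockout lines gave 2 calls, both higher, where 29.9% of all miRNAs were called (91 higher and 51 lower). Most calls over all miRNAs were thus also higher in both comparisons. The uninduced line against the knockout lines gave none among the members and none among the 475 miRNAs (0%) with edgeR. At an unadjusted p under 0.05, 72 of the 475 and 1 of the 9 members passed in that last comparison, and the DESeq2 Wald test called 15 miRNAs, of which 1 was a member. All 22 calls of members kept their direction under all of the scalings, filters and left-out libraries tried. The median log2 fold change of the members in knockout against wild type was -0.48, beside -0.12 over all 475. With library totals in place of TMM factors these medians were -0.16 and 0.16. Scaling shifts members and other miRNAs nearly alike, so the order of the medians on library totals is no separate evidence. Without knockout line 1 the medians lay closer, at -0.37 for the members and -0.31 over all miRNAs.

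**Figure D1:**
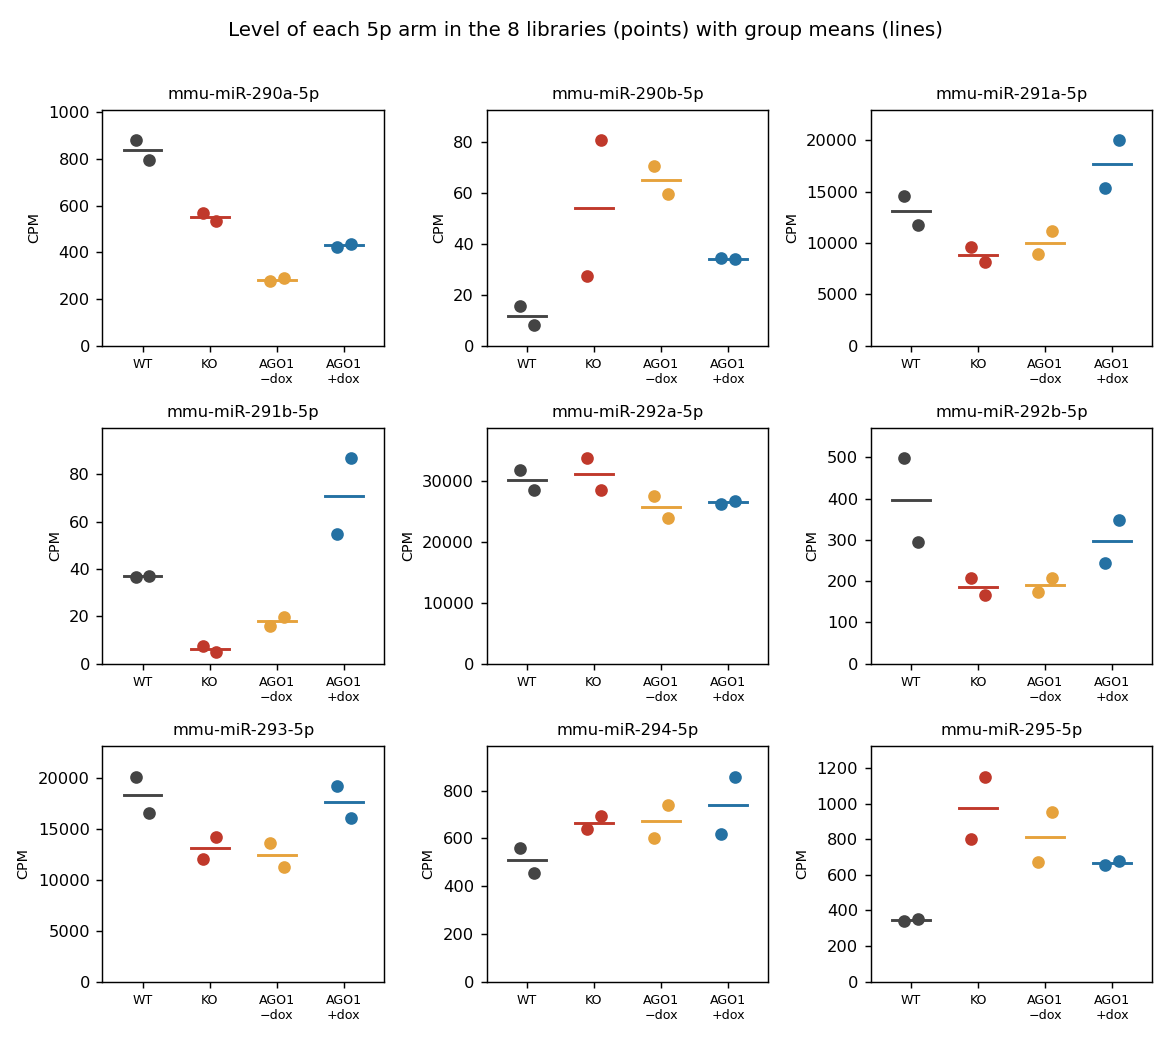
Level of each of the 9 5p arms in CPM (vertical axis, from 0, a separate scale in each panel) in wild type (WT), the knockout lines (KO) and the AGO1 line without and with doxycycline (−dox, +dox). Points are single libraries and lines are means of 2. mmu-miR-290a-5p was highest in both wild type libraries (879 and 795 CPM), mmu-miR-295-5p lowest there (339 and 351 CPM), and mmu-miR-292a-5p was called in no comparison on this scale.

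The seed group CUCAAAC holds the most abundant member, mmu-miR-292a-5p, and mmu-miR-290a-5p, which was called lower than wild type in all 3 groups without Ago2. Below, the 2 values of a group are in the order A and B, or lines 1 and 2. mmu-miR-292a-5p stood at 31840 and 28602 CPM in wild type, 33779 and 28624 in knockout, 27585 and 24056 uninduced and 26299 and 26779 induced. On this scale it was not called in any of the 6 comparisons. As a share of all counts it was 2.83 and 2.85% in wild type, 3.77 and 3.48% in knockout, 2.81 and 2.48% uninduced and 2.32 and 2.40% induced, so that knockout stood above all other libraries and induced below them. The induced line against knockout gave -0.23 ± 0.15 on the log2 scale with TMM factors (edgeR adjusted p = 0.264) and -0.62 with library totals, where it would be called (adjusted p = 0.00370). Its log2 fold change in knockout against wild type was 0.046 ± 0.15 (SE; edgeR adjusted p = 0.806), and that sign was not stable: it was -0.038 with no filter on low counts, while with library totals the value was 0.35 and would be called (adjusted p = 0.0261). It was also -0.038 when wild type B was left out, and -0.074 when knockout line 1 was.

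mmu-miR-293-5p reached 20146 and 16582 CPM in wild type, 12057 and 14201 in knockout, 13638 and 11216 uninduced and 19235 and 16048 induced. Both wild type libraries and both induced libraries lay above all 4 others. The log2 fall was 0.48 ± 0.18 in knockout (edgeR adjusted p = 0.0410) and 0.56 ± 0.18 in the uninduced line (adjusted p = 0.0211), each against wild type. The knockout call was lost in 11 of 15 alternatives, among them the DESeq2 Wald test (adjusted p = 0.0846) and library totals (0.407), and without wild type A (0.583), knockout line 1 (0.153) or any 1 AGO1 library (0.0852 to 0.209). Leaving out wild type A (0.318), uninduced B (0.502), induced A (0.0872) or induced B (0.0919) ended the uninduced call. With doxycycline its value was 0.51 ± 0.18 above the uninduced line (edgeR adjusted p = 0.0596, not called), and 7 of 16 alternatives called it, among them a replicate block by letter (0.00405). Its partner mmu-miR-293-3p had 18055 and 14995 CPM in wild type, 8195 and 7566 in knockout, 6884 and 7050 uninduced and 11142 and 11863 induced. That arm fell by 1.07 ± 0.16 in knockout (edgeR adjusted p = 0.000412), and rose by 0.72 ± 0.16 with doxycycline (adjusted p = 0.00777, but 0.139 without uninduced B and 0.0838 without induced B). Both arms of the hairpin were lower in the knockout lines than in wild type.

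mmu-miR-290a-5p, the least abundant of the 3, had 879 and 795 CPM in wild type, 566 and 533 in knockout, 278 and 288 uninduced and 421 and 437 induced. The 4 groups did not overlap, and their order was wild type, knockout, induced, uninduced. Of the neighbours in that order, wild type and knockout differed (edgeR adjusted p = 0.0222), knockout and induced did not pass (0.179), and induced and uninduced differed (0.0398). The fall against wild type was 0.60 ± 0.19 in knockout, 0.96 ± 0.19 in the induced line (edgeR adjusted p = 0.00359) and 1.57 ± 0.20 in the uninduced line (adjusted p = 0.000103) on the log2 scale. The last of these was called under all 16 alternatives. The knockout call was lost with library totals (0.150), with only the 2 groups fitted (0.0968), and on leaving out either wild type library (0.267 without A, 0.0512 without B), knockout line 2 (0.0805) or any 1 AGO1 library (0.0762 to 0.154). The induced call was lost without wild type A (0.0629), induced A (0.106) or induced B (0.0759).

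With doxycycline mmu-miR-290a-5p rose by 0.60 ± 0.19 over the uninduced line (edgeR adjusted p = 0.0398). That call was lost in 9 of 16 alternatives, including the DESeq2 Wald test (0.0550), library totals (0.0993), no filter (0.0843), and leaving out any 1 wild type or AGO1 library (0.0518 to 0.329). The uninduced line against the knockout lines gave -0.96 ± 0.20, not called with edgeR (adjusted p = 0.134). It was called there by the DESeq2 Wald test (0.00146), with library totals (0.0284), without knockout line 1 (0.0148) and without knockout line 2 (0.00341). The uninduced line and the knockout lines have the same labelled Ago2 genotype and received no doxycycline.

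Both members of the seed group AUCAAAG were called higher in the induced line than in the uninduced line and in the knockout lines. mmu-miR-291a-5p had 14537 and 11751 CPM in wild type, 9590 and 8119 in knockout, 8890 and 11173 uninduced and 15324 and 19985 induced. The induced libraries were above all others, and the knockout and uninduced libraries overlapped. It rose by 0.82 ± 0.20 with doxycycline (edgeR adjusted p = 0.0134) and by 1.00 ± 0.20 from knockout to induced (adjusted p = 0.00439). The first call was lost without uninduced A (0.0780), uninduced B (0.0621) or induced B (0.141), and the second without induced B (0.0724). Against wild type it was 0.57 ± 0.20 lower in knockout (adjusted p = 0.0328), a call lost in 10 of 15 alternatives, among them library totals (0.229), TMM factors taken without the cluster (0.0660), and leaving out wild type A (0.469), knockout line 2 (0.0922) or any 1 AGO1 library (0.0649 to 0.127). Induced against wild type gave 0.43 ± 0.20 (adjusted p = 0.111), which was not called. It was called in 4 of 16 alternatives: TMM factors without the cluster (0.0411), only the 2 groups fitted (0.00478), and without knockout line 1 (0.0245) or 2 (0.0255).

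The 3p partner of mmu-miR-291a-5p had 3824 and 3107 CPM in wild type, 1916 and 1338 in knockout, 1767 and 1267 uninduced and 2587 and 2538 induced. mmu-miR-291a-3p fell by 1.09 ± 0.24 in knockout (edgeR adjusted p = 0.00359, but 0.0624 without wild type A) and rose by 0.75 ± 0.23 with doxycycline (adjusted p = 0.0358). The rise was lost with library totals (0.0622) and on leaving out wild type B (0.0508), uninduced B (0.439), induced A (0.125) or induced B (0.139). Both arms of this hairpin were higher with doxycycline, and the induced 3p arm lay below both wild type libraries while the induced 5p arm lay above them.

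mmu-miR-291b-5p was counted 31 and 41 times in wild type, 3 times and once in the knockout lines, 12 and 6 times uninduced and 64 and 87 times induced. In CPM these are 36.8 and 36.9, 7.48 and 5.03, 15.97 and 19.8, and 54.7 and 86.7. The 4 groups did not overlap, with induced highest and knockout lowest. Both knockout counts are at or under 3, so the ratio is given from pooled counts: wild type was 5.52 times the knockout level (95% exact interval 2.07 to 20.8, 72 against 4 counts), and the induced line 10.4 times (3.99 to 38.7, 151 against 4 counts). Such intervals cover counting error only.

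In the edgeR fit mmu-miR-291b-5p had a log2 fold change of -2.44 ± 0.59 in knockout (adjusted p = 0.00625), and was 3.37 ± 0.55 higher in the induced line than in knockout (adjusted p = 0.00134). Both calls held in all 15 alternatives. It rose by 2.01 ± 0.41 with doxycycline (edgeR adjusted p = 0.00489; 0.0597 without uninduced A and 0.0537 without induced B). Against wild type it was 1.08 ± 0.43 lower in the uninduced line (adjusted p = 0.0487), a call lost in 10 of 16 alternatives, among them the DESeq2 Wald test (0.225) and leaving out any 1 wild type or AGO1 library (0.103 to 0.242). It was 0.93 ± 0.33 higher in the induced line than in wild type (adjusted p = 0.0462). This call was lost in 8 of 16, including the DESeq2 Wald test (0.238), and on leaving out either wild type library (0.104 without A, 0.167 without B), uninduced A (0.0534), uninduced B (0.0546) or induced B (0.298).

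Since mmu-miR-291a-5p and mmu-miR-291b-5p differ only at their outermost bases, a read trimmed at its ends matches both, and how such reads were counted is not given in the sources used here. This makes the level of mmu-miR-291b-5p uncertain. Its count was 0.253 and 0.314% of that of mmu-miR-291a-5p in wild type, 0.0780 and 0.0620% in knockout, 0.180 and 0.178% uninduced and 0.357 and 0.434% induced. The ratio of the pair was thus not constant across groups.

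The seed group CUCAAAA pairs an arm from each strand of the locus. mmu-miR-292b-5p had 497 and 296 CPM in wild type, 207 and 166 in knockout, 174 and 208 uninduced and 244 and 349 induced. Wild type A was far above the rest, and wild type B lay between the induced libraries. The arm was 1.07 ± 0.32 lower on the log2 scale in knockout than in wild type (edgeR adjusted p = 0.0164) and 1.06 ± 0.31 lower in the uninduced line (adjusted p = 0.0139). Both rested on wild type A: without it the values were -0.47 (adjusted p = 0.286) and -0.50 (adjusted p = 0.252), and neither was called. The knockout call was also lost with library totals (0.0509) and with only the 2 groups fitted (0.0574), and the uninduced call without uninduced A (0.0740) or uninduced B (0.0672). Doxycycline gave 0.64 ± 0.31 (edgeR adjusted p = 0.147), not called, although the induced libraries were both above the uninduced ones. It was called in 3 of 16 alternatives, with only the 2 groups fitted (0.0321) and without knockout line 1 (0.0163) or 2 (0.0160).

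mmu-miR-294-5p, the minor arm of a hairpin whose 3p product is among the abundant miRNAs of embryonic stem cells, had 561 and 456 CPM in wild type, 639 and 694 in knockout, 603 and 741 uninduced and 620 and 859 induced. Both wild type libraries were below the other 6, which overlapped. Its log2 fold change was 0.39 ± 0.23 in knockout against wild type (edgeR adjusted p = 0.172) and 0.54 ± 0.23 in induced against wild type (adjusted p = 0.0853). It passed in none of the 6 comparisons. With library totals the first value was 0.70 and called (0.0237), and the second was called in 5 of 16 alternatives, among them the replicate block (0.0465).

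The seed CUCAAAU belongs to mmu-miR-295-5p, which was higher in every library without Ago2. It had 339 and 351 CPM in wild type, 801 and 1152 in knockout, 671 and 952 uninduced and 656 and 679 induced. The lowest of the 6 libraries without Ago2 stood clear of the highest wild type library, and neighbouring groups among those 6 overlapped. The rise over wild type was 1.49 ± 0.25 on the log2 scale in knockout (edgeR adjusted p = 0.000785), 1.23 ± 0.24 uninduced (adjusted p = 0.00166) and 0.95 ± 0.24 induced (adjusted p = 0.0123). The first held in all 15 alternatives and the second in all 16. The third was lost without wild type B (0.0611) or induced B (0.0521). Doxycycline gave -0.28 ± 0.24 (edgeR adjusted p = 0.406), not called.

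The seed CUUAAAA belongs to mmu-miR-290b-5p, the other arm from the minus strand, which also stood higher without Ago2. It was counted only 13 and 9 times in wild type, 11 and 16 times in knockout, 53 and 18 times uninduced and 40 and 34 times induced, which is 15.4 and 8.10, 27.4 and 80.5, 70.6 and 59.5, and 34.2 and 33.9 CPM. Wild type did not overlap the other groups, and the knockout lines were the most unlike each other. Pooled counts put knockout at 4 times wild type (95% exact interval 2.19 to 7.37, 27 against 22 counts in libraries of different depth). The edgeR rise over wild type was 2.07 ± 0.57 in knockout (adjusted p = 0.0118), 2.51 ± 0.50 uninduced (adjusted p = 0.00180) and 1.56 ± 0.50 induced (adjusted p = 0.0331). The uninduced call held in all 16 alternatives. The knockout call was lost without wild type B (0.0689) or knockout line 2 (0.0813), where its value was 1.29. Without knockout line 1 it was 2.81, and without wild type A 2.74, with calls in both. Leaving out wild type A also raised the uninduced value to 3.14 and the induced value to 2.22, both called. The induced call was lost with the DESeq2 Wald test (0.0633) and without wild type B (0.206), induced A (0.0771) or induced B (0.0972). Doxycycline gave -0.95 ± 0.44 (edgeR adjusted p = 0.135), not called, and 3 of 16 alternatives called it.

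**Figure D2:**
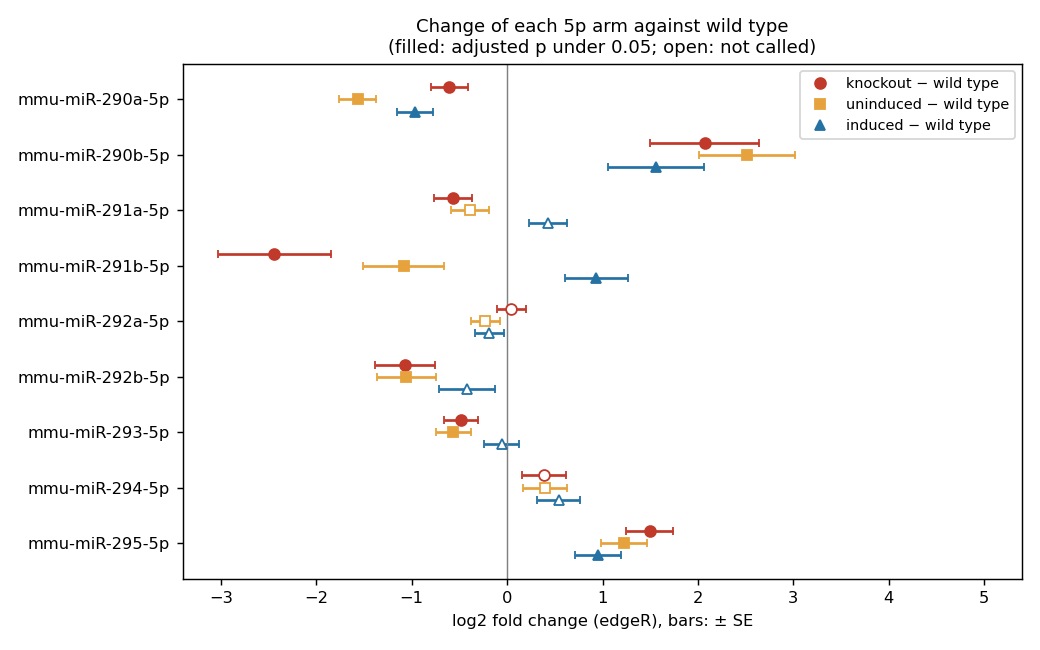
Log2 fold change of each 5p arm against wild type (horizontal axis, edgeR) in knockout (circles), the uninduced (squares) and the induced AGO1 line (triangles). Bars are ± SE, filled symbols have an adjusted p under 0.05, and the 3 comparisons share the wild type libraries. mmu-miR-290b-5p and mmu-miR-295-5p lie to the right in all 3 (2.07 and 1.49 in knockout), mmu-miR-290a-5p to the left (-0.60 in knockout), and mmu-miR-291b-5p on both sides (-2.44 in knockout, 0.93 induced).

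Members with the same seed were not all called in the same comparisons. Within CUCAAAC, mmu-miR-290a-5p was called lower than wild type in 3 groups, mmu-miR-293-5p in 2 and mmu-miR-292a-5p in none. Within CUCAAAA, mmu-miR-292b-5p was called lower in 2 groups and mmu-miR-294-5p in none. Within AUCAAAG, both members were called lower in knockout than in wild type and higher with doxycycline. Against wild type, mmu-miR-291b-5p was also called lower uninduced and higher induced. No test compared the members with each other, so these calls do not show that members of a seed group differ.

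The share of a hairpin's counts on its 5p arm does not depend on scaling between libraries. The change of the 5p to 3p ratio between groups was tested with edgeR over 195 hairpins that had at least 10 counts in each arm, with the 2 arms of a library as columns. In knockout against wild type, 3 of the 9 hairpins of the cluster were called, 2 towards 5p and 1 towards 3p, where 28.7% of all hairpins were called. The uninduced and the induced line against wild type gave 7 and 6 calls, and in each of those comparisons 34.4% of all hairpins were called. These 3 comparisons again share the wild type libraries. Doxycycline gave 1 call (5.64% overall), induced against knockout 1 (8.21% overall) and uninduced against knockout 0 (0.513% overall).

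**Figure D3:**
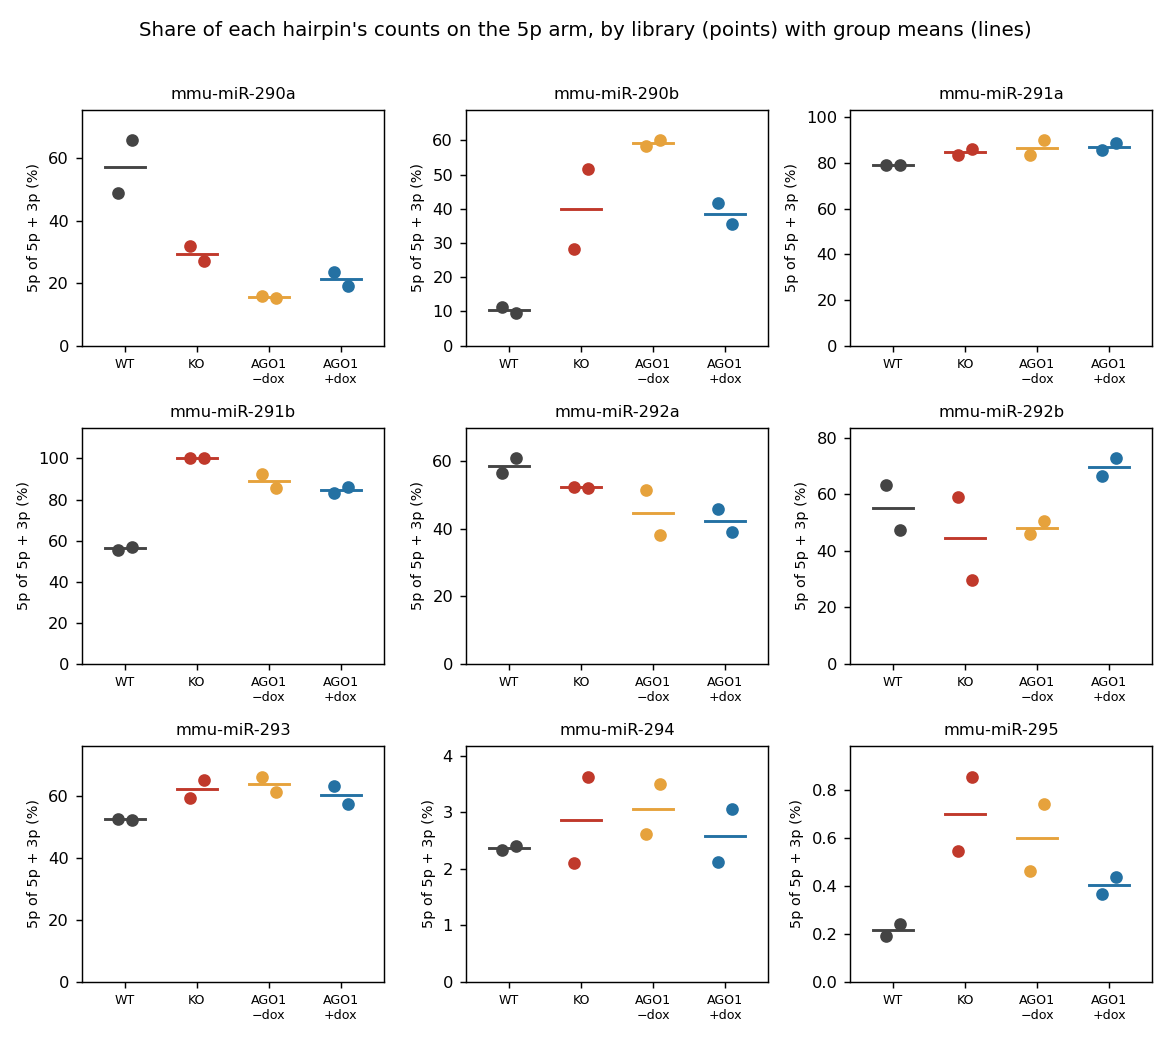
Share of each hairpin's 5p and 3p counts that fell on the 5p arm, in percent (vertical axis, from 0, a separate scale in each panel), by library (points) with means of 2 (lines). The miR-290a share fell from 48.8 and 65.7% in wild type to 15.2 and 15.95% in the uninduced line, while the miR-290b share rose. The 100% of miR-291b in knockout rests on 3 and 1 counts.

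Against wild type, the miR-290a hairpin had the largest turn towards 3p among the 9 of the cluster. Its 5p share was 48.8 and 65.7% in wild type, 32.0 and 27.0% in knockout, 15.95 and 15.2% uninduced and 23.5 and 19.1% induced. All 6 libraries without Ago2 lay below both wild type libraries, and knockout lay above both AGO1 line groups. The log2 ratio of 5p to 3p was lower than in wild type by 1.68 ± 0.29 in knockout (edgeR adjusted p = 8.88e-05), by 2.86 ± 0.29 uninduced (adjusted p = 1.23e-07) and by 2.33 ± 0.28 induced (adjusted p = 1.29e-06). Each of the 3 calls held in all alternatives. From knockout to the uninduced line the ratio changed by -1.18 ± 0.30 (edgeR adjusted p = 0.0719, not called). It was called there on leaving out either wild type library (0.00149 without A, 0.00185 without B), knockout line 2 (0.00387) or induced B (0.0479).

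Both arms of miR-290a contributed, in opposite directions. mmu-miR-290a-3p had 921 and 415 CPM in wild type, 1205 and 1444 in knockout, 1466 and 1600 uninduced and 1371 and 1858 induced. The wild type libraries were the lowest, and they differed more from each other than the libraries of any other group did. In knockout this arm stood 0.99 ± 0.33 higher on the log2 scale (edgeR adjusted p = 0.0268), which was 0.51 and not called with wild type B left out (adjusted p = 0.153). With wild type A left out it was 1.86.

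miR-290b turned towards 5p. Its 5p share was 11.3 and 9.57% in wild type (13 of 115 and 9 of 94 counts), 28.2 and 51.6% in knockout (11 of 39 and 16 of 31), 58.2 and 60.0% uninduced (53 of 91 and 18 of 30) and 41.7 and 35.4% induced (40 of 96 and 34 of 96). Exact 95% intervals of the wild type shares reached up to 18.6 and 17.4%, and those of the knockout shares ran from 15.0 to 44.9% and from 33.1 to 69.8%. At this depth the interval of knockout line 1 overlapped those of wild type, and that of line 2 did not. The log2 ratio rose by 2.42 ± 0.57 in knockout (edgeR adjusted p = 0.00209, but 1.73 and 0.0655 without knockout line 2, and 3.16 without line 1), by 3.58 ± 0.50 uninduced (adjusted p = 6.16e-06) and by 2.40 ± 0.47 induced (adjusted p = 0.000402), against wild type. With doxycycline it changed by -1.18 ± 0.46 (adjusted p = 0.146), not called. Mir290b lies opposite Mir290a and strand assignment of reads is not given. This turn and that of miR-290a may therefore not be separate results.

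mmu-miR-295-5p remained a trace product of its hairpin in all libraries. The 5p share was 0.192 and 0.242% in wild type, 0.544 and 0.854% in knockout, 0.460 and 0.738% uninduced and 0.364 and 0.438% induced, at 26811 to 210692 counts of the hairpin per library. The log2 ratio rose over wild type by 1.66 ± 0.33 in knockout (edgeR adjusted p = 0.000457), 1.43 ± 0.33 uninduced (adjusted p = 0.00179) and 0.89 ± 0.33 induced (adjusted p = 0.0397). The first 2 held in all alternatives. The third was lost with limma on the log ratio (0.0545) and on leaving out either wild type library (0.242 without A, 0.0638 without B), induced A (0.126) or induced B (0.254). Its 3p partner, the most abundant arm of the cluster, ranged from 128050 to 179560 CPM.

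The 5p share of miR-291a was 79.1 ± 0.0590% in wild type, 84.6 ± 1.77% in knockout, 86.6 ± 4.52% uninduced and 87.1 ± 2.25% induced (n = 2). Its log2 ratio was higher than in wild type by 0.80 uninduced (edgeR adjusted p = 0.0297) and 0.85 induced (adjusted p = 0.0181), while 0.53 in knockout was not called (adjusted p = 0.162). The uninduced call was lost on leaving out either wild type library (0.0546 without A, 0.0579 without B) or uninduced B (0.283), the induced call without induced B (0.171), and both with limma (0.0575 and 0.0507).

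miR-293 had a 5p share of 52.6 ± 0.157% in wild type, 62.4 ± 4.04% in knockout, 63.9 ± 3.57% uninduced and 60.4 ± 4.12% induced. The 2 wild type libraries were the lowest of the 8. Only the uninduced line was called, with a log2 ratio change of 0.68 (edgeR adjusted p = 0.0457), and knockout gave 0.58 (adjusted p = 0.0939). The call was lost with limma (0.0588) and on leaving out either wild type library (0.137 without A, 0.143 without B), uninduced A (0.219), induced A (0.0656) or induced B (0.0639).

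miR-292a went the other way, with 58.7 ± 3.11% on 5p in wild type, 52.3 ± 0.293% in knockout, 44.8 ± 9.49% uninduced and 42.5 ± 4.68% induced. Its log2 ratio changed by -0.81 uninduced (edgeR adjusted p = 0.0376) and by -0.95 induced (adjusted p = 0.0146) against wild type. The uninduced call was lost with limma (0.0626) and on leaving out either wild type library (0.0523 without A, 0.179 without B), uninduced B (0.262), induced A (0.0656) or induced B (0.0594), and the induced call without wild type B (0.113) or induced B (0.170).

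For miR-291b the 5p share was 56.2 ± 1.12% in wild type, 89.0 ± 4.66% uninduced and 84.6 ± 2.14% induced, and all 4 counts in knockout were on 5p. Exact 95% intervals of the knockout shares ran from 29.2 to 100% (3 of 3 counts) and from 2.50 to 100% (1 of 1), so this depth cannot set them apart from wild type. Its 3p arm was counted 25 and 31 times in wild type, 0 times in both knockout lines, once in each uninduced library and 13 and 14 times induced. A count of 0 allows up to 3 counts, which is 7.48 and 15.1 CPM in the knockout lines. Against wild type the log2 ratio was higher by 2.70 uninduced (edgeR adjusted p = 0.0408) and 2.10 induced (adjusted p = 0.00236). The first was lost in 7 of 11 alternatives (adjusted p up to 0.303, without uninduced A), including limma (0.0661) and leaving out any 1 wild type or AGO1 library, and the second with limma (0.0983) and without induced B (0.0505).

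miR-292b was the only hairpin of the cluster called with doxycycline. Its 5p share was 63.2 and 47.2% in wild type, 58.9 and 29.7% in knockout, 46.0 and 50.4% uninduced and 66.4 and 72.6% induced. The log2 ratio rose by 1.32 ± 0.39 from uninduced to induced (edgeR adjusted p = 0.0485) and by 1.48 ± 0.41 from knockout to induced (adjusted p = 0.0208). The first call was lost with limma (0.261), with at least 50 counts in each arm (0.0828), and without uninduced A (0.412), uninduced B (0.262), induced A (0.117) or induced B (0.242). The second was lost with limma (0.0895), with at least 50 counts (0.0553), and without uninduced A (0.0972), uninduced B (0.102) or induced B (0.145). It was 0.68 and not called without knockout line 2 (adjusted p = 0.404), and 2.44 without knockout line 1, so its size depended on which knockout line was used. miR-294 was called in no comparison, with group means of 2.37 to 3.06% on 5p.

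Because Mir290b and Mir292b lie opposite Mir290a and Mir292, reads from one strand are complementary to the other. mmu-miR-290b-5p is complementary over 22 bases to mmu-miR-290a-3p, printed here with the paired bases in capitals:
mmu-miR-290a-3p: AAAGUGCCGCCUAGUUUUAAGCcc
The complement of mmu-miR-292b-5p was found, over its whole 23 bases, within the Mir292 hairpin. Whether reads were assigned by strand is not given in the sources used here, and so the minus strand arms are uncertain and reads of the 2 strands cannot be told apart from the counts alone. Across the libraries the count of mmu-miR-290b-5p was 1.68 to 5.57% of that of mmu-miR-290a-3p, and mmu-miR-292b-5p was 0.533 to 2.03% of mmu-miR-292a-3p. The ratio to the opposite arm thus varied 3.33-fold and 3.80-fold between libraries. Of the 3p arms, mmu-miR-290b-3p was 9.62 to 18.2% of mmu-miR-290a-5p, a 1.89-fold range. mmu-miR-292b-3p was 0.428 to 1.37% of mmu-miR-292a-5p, a 3.2-fold range. mmu-miR-292b-5p was at 2.03 and 1.61% in wild type and at 0.533 to 0.838% in the other 6 libraries, without overlap. mmu-miR-290b-5p was at 1.68 and 1.95% in wild type, 2.28 and 5.57% in knockout, 4.81 and 3.72% uninduced and 2.50 and 1.82% induced, so the induced libraries reached into the wild type range.

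**Figure D4:**
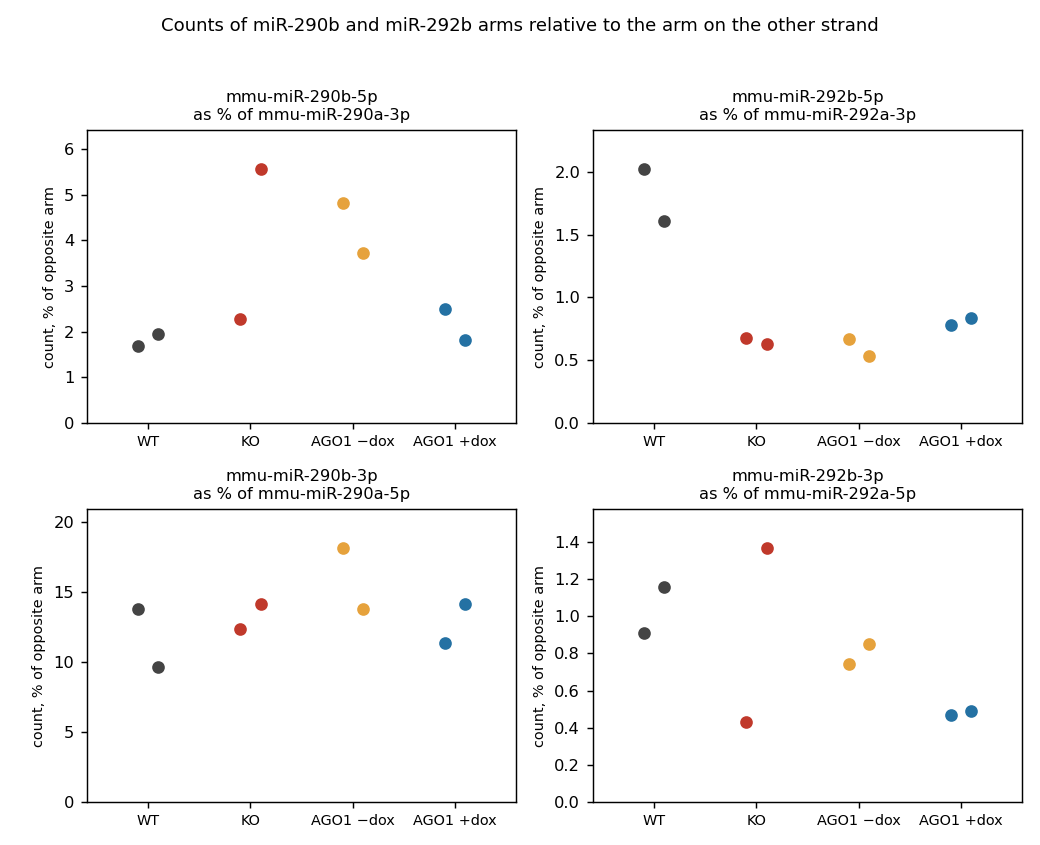
Counts of the miR-290b and miR-292b arms as a percent of the count of the arm on the other strand (vertical axes, from 0), by library and group, with each point a library. mmu-miR-292b-5p was at 2.03 and 1.61% of mmu-miR-292a-3p in wild type and below 1% elsewhere, and mmu-miR-290b-5p ranged from 1.68 to 5.57% of mmu-miR-290a-3p.

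Among the 9 3p partner arms, knockout against wild type gave 1 call up and 3 down, where 57.7% of all miRNAs were called. Doxycycline gave 3 up and 0 down among them, where 28.8% of all miRNAs were called (100 up and 37 down). The other pluripotency cluster, that of miR-302, had 5 of its 10 arms above the filter. Of these, 3 were called up in knockout against wild type, where 121 of all 475 miRNAs were called up (57.7% in either direction). In the uninduced line against wild type 5 were called up, beside 123 of 475 (59.2% in either direction). With doxycycline 3 were called down, beside 37 of 475 (28.8% in either direction). None of the miR-302 arms was called in the opposite direction in those comparisons. Their median log2 fold change in knockout was 2.45, beside -0.48 for the 5p members. That median pools both knockout lines. The level of these miR-302 arms, and how far each line rose, are not given here. The summed 5p level was 63866 ± 7053 CPM in wild type, 55624 ± 2898 in knockout, 50320 ± 2271 uninduced and 64072 ± 1675 induced (mean ± SD, n = 2). The order of wild type and knockout depended on scaling. As a share of all counts the 5p arms were higher in knockout (6.48 ± 0.0547%) than in wild type (5.99 ± 0.172%).

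The miRNAs outside the cluster whose profile over the 8 libraries was nearest to the summed 5p arms were found by the root mean square difference of centred log2 CPM among 208 miRNAs with a mean of at least 100 CPM. They were miR-26a-5p (0.17), miR-376b-3p (0.17), miR-30a-3p (0.20), miR-15b-5p (0.20) and miR-126a-3p (0.21), where the median of the candidates was 0.59. For mmu-miR-292a-5p alone the nearest were miR-25-3p (0.13), miR-19a-3p (0.18), miR-26a-5p (0.19), miR-15b-5p (0.19) and miR-376b-3p (0.19), with a median of 0.61. The lists have 3 names in common, and mmu-miR-292a-5p is itself the largest part of the sum.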

How the data were processed

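Small RNA from 8 mouse embryonic stem cell libraries was prepared with an Illumina TruSeq small RNA kit from total RNA, per the labels' protocols. Per the submitters' processing notes, Bowtie and build mm10 were used. The authors deposited raw counts, whole numbers for each mature miRNA. Bowtie's version, and how trimming, mismatches, strand and reads with several matches were handled, are details not given in the sources used here, nor is the miRNA release. The table's 2 header lines disagree on the letter of 1 wild type library, and the first line was used.

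Groups follow the labels. Counts were analysed with R 4.3.3, edgeR 4.0.16 (TMM factors, filterByExpr, quasi-likelihood F test, 2-sided, 4 residual degrees of freedom, common biological coefficient of variation 0.244), limma 3.58.1 and DESeq2 1.42.0. Of 1915 miRNAs, 901 had no count and 475 were tested. All 4 groups were fitted together to share the estimate of spread. Arm ratios were tested in edgeR on 195 hairpins with library as a term. A ratio to a group with a count of 3 or fewer in each library, and the shares discussed as shallow, are given with exact 95% intervals, and a count of 0 allows up to 3 counts. These cover counting error only, as PCR copies of a molecule are not told apart. The models were also run on counts simulated with 1 common spread for all miRNAs and groups. That run cannot test whether sharing the spread between groups holds for these data.

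The members, lists and tests were chosen with earlier results of these data known. Named miRNAs are the 9 members, their 3p partners, and by rule the 5 nearest profiles outside the cluster to the summed 5p arms and to the most abundant member. Alternatives were DESeq2 size factors, library totals, TMM factors without the cluster, the DESeq2 Wald test, no filter, a mean of at least 20 CPM, only the 2 groups compared, each library left out, a replicate block by letter, and for arm ratios limma on the log ratio (pseudocount 0.5) and at least 50 counts per arm. The block was fitted without the knockout lines, which have no letters.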

Additional observations from a re-analysis of the deposited data

How the results depend on the processing

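Of 22 called 5p level results, 6 were called under every alternative tried, 16 were lost under at least 1, and none changed direction. Of 18 called arm ratios, 7 were called under every alternative and 11 were lost under at least 1. Of the 5 called 3p levels given, 1 was called under every alternative. With 2 libraries a group and a shallow knockout line 2, depth limits mmu-miR-290b-5p and mmu-miR-291b-5p most. Leaving out a library leaves its group with 1, which is then assumed to vary like the other groups.

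With library totals, 1 member was called in uninduced against knockout (0 in the reported fit) and 5 in induced against knockout (2 reported), and 2 miRNAs of all in uninduced against knockout. Fitting only the 2 groups compared called 3 members in knockout against wild type (7 reported) and 6 with doxycycline (3 reported). Over all miRNAs the same fits called 194 of 421 (274 of 475 reported) and 203 of 435 (137 of 475 reported). The DESeq2 Wald test called 1 member and 15 miRNAs in uninduced against knockout and 2 members in induced against wild type (4 reported), and no filter gave 14 miRNAs in uninduced against knockout. Limma on the log ratio called 0 hairpins of the cluster with doxycycline, 3 in induced against wild type, 3 in uninduced against wild type and 0 in induced against knockout. With at least 50 counts per arm, 0 were called with doxycycline and 0 in induced against knockout. The causes were not tested.

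Leaving out 1 library at a time, the members called ranged from 3 to 6 in knockout against wild type, 0 to 1 in uninduced against knockout, 0 to 6 with doxycycline, 0 to 6 in induced against wild type, 3 to 7 in uninduced against wild type and 1 to 4 in induced against knockout. Over all miRNAs the counts ranged from 0 to 61 in uninduced against knockout, 57 to 200 with doxycycline, 75 to 258 in induced against wild type and 70 to 174 in induced against knockout (142 reported). Arm ratio calls ranged from 0 to 1 in uninduced against knockout, 0 to 1 with doxycycline, 2 to 7 in induced against wild type, 3 to 7 in uninduced against wild type and 0 to 1 in induced against knockout. The log2 fold change of mmu-miR-292a-5p in knockout against wild type, 0.046 in the reported fit, was -0.038 with no filter and ranged from -0.074 to 0.31 with a library left out. In the induced line against wild type its value of -0.19 (not called) ranged from -0.27 to 0.067, the latter without the library wild type A, where the sign changed.

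Scaling moved the median of all miRNAs. Library totals shifted it in knockout against wild type from -0.12 to 0.16 and the calls from 121 up and 153 down to 155 up and 111 down. In induced against knockout it went from 0.026 to -0.37 (91 up and 51 down to 72 up and 117 down), with doxycycline from 0.033 to -0.17 (100 up and 37 down to 83 up and 64 down), and in uninduced against knockout from -0.010 to -0.19. TMM factors without the cluster shifted induced against wild type from 0.0054 to 0.11 (91 up and 94 down to 112 up and 75 down).

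The letters A and B do not show which libraries belong together. The differences A minus B correlated at 0.0596 between wild type and uninduced, -0.00899 between wild type and induced and 0.209 between uninduced and induced. The fit with the letters as a replicate block also left out both knockout lines. Its counts therefore do not show the effect of the block alone. In it, 4 members were called with doxycycline (3 reported), 5 in induced against wild type (4 reported) and 6 in uninduced against wild type (6 reported). The counts of all miRNAs were 192, 250 and 321 (137, 185 and 281 reported), and those of arm ratios 1, 7 and 7 (1, 6 and 7 reported).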
